A study of Homo sapiens with 15 samples.

Results

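The 10 genes described here encode secreted chemokines and cytokines: CXCL1, CXCL2, CXCL3, CXCL5, CXCL8, CCL2, CCL20, IL6, LIF and CSF3. They were taken by symbol, matched to Ensembl identifiers, from a table of 60721 genes, and were read in all 15 libraries. Poly(A) RNA was sequenced from MCF-10A, an immortalised, non-tumorigenic human mammary epithelial cell line. The targeted gene was NF1, whose product neurofibromin restrains RAS by speeding its GTP hydrolysis, and cells had received NF1 guide 1, guide 2 or guides 1 and 2 together. The 3 edited lines were compared with unedited parental cells and with cells that carried an empty vector, at 3 libraries per genotype. All 5 genotypes grew in the same phenol red-free DMEM/F12 medium with 10% horse serum, 20 ng/mL EGF, 0.5 µg/mL hydrocortisone, 100 ng/mL cholera toxin and 10 µg/mL insulin, and no group received a further agent. The labels do not say whether an edited line was 1 clone or a pool.

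Chemokines are small secreted proteins that bind G protein-coupled receptors and direct leukocytes towards their source. CXCL1, CXCL2, CXCL3, CXCL5 and CXCL8 carry an ELR motif and act on CXCR2 and, to differing degrees, CXCR1, mainly on neutrophils. CCL2 acts on CCR2 of monocytes and CCL20 on CCR6 of lymphocytes and dendritic cells. IL6 and LIF signal through receptors that share gp130, the product of IL6ST, and CSF3 encodes granulocyte colony-stimulating factor. In epithelial cells many of these genes are induced by interleukin-1 and tumour necrosis factor through NF-kB, and their mRNAs are short-lived because of AU-rich elements.

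Library totals lay between 46129559 and 78976917 counts, with a median of 55942785. Levels are given as CPM, a gene's counts scaled to a common library total, and 3 counts, taken as the smallest detectable level, corresponded to 0.038 to 0.065 CPM. NF1 RNA was 115 to 159 CPM in the unedited libraries and 26.0 to 51.3 CPM in the edited libraries. Among replicates, guide 2 replicate 2 stood apart: CDH1, the epithelial cadherin, was at 91.4 CPM there and at 0.0361 and 0.0434 CPM in the other guide 2 libraries. The parental libraries were uneven too: replicate 2 had 1.79 CPM of CDH1 beside 42.9 and 37.8 CPM, and replicate 1 was apart in several members. The 8 leukocyte markers summed to 13.1 to 16.3 CPM with the empty vector, 11.9 to 13.1 CPM with both guides and 6.03 to 9.88 CPM in the other 3 groups, most of it CD14 and CSF1R, while PTPRC (CD45) reached at most 0.0542 CPM and CD3E and MS4A1 had no count in any library. In bulk RNA, fewer cells of a type and less RNA per cell cannot be told apart. Between 24.6% and 76.8% of genes differed beyond counting noise between replicate libraries, so none was counted as a repeat of another. The labels call the libraries biological replicates without describing separate cultures, so the p-values measure the spread between these libraries.

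Promoter windows of 300 bases, from 250 bases before the transcription start, were held for 7 of the 10 genes in RefSeq (GRCh38.p14), and the stretch from 140 to 21 bases before the start is printed because all 7 carry a match to an NF-kB-type pattern there. The pattern GGNNTTTCC was searched on both strands and was chosen with the textbook NF-kB sites of these genes in mind. Capitals mark its matches, and in CXCL8 also the match to the AP-1 pattern TGANTCA. The CXCL1 stretch is chr4:73869253-73869372 (plus strand), CXCL2 chr4:74099216-74099335 (minus), CXCL3 chr4:74038710-74038829 (minus) and CXCL5 chr4:73998698-73998817 (minus). CXCL8 is at chr4:73740429-73740548 (plus), CCL20 at chr2:227813702-227813821 (plus) and IL6 at chr7:22727060-22727179 (plus).
CXCL1: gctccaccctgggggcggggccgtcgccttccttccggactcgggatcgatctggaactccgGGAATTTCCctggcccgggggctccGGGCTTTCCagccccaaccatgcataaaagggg
CXCL2: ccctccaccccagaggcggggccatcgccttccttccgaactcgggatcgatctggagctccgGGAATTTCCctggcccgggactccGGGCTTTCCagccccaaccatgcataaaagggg
CXCL3: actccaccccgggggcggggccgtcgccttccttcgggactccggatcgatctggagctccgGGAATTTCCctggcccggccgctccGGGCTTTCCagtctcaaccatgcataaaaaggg
CXCL5: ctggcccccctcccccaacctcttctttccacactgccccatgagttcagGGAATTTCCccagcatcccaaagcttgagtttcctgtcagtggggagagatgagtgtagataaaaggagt
CXCL8: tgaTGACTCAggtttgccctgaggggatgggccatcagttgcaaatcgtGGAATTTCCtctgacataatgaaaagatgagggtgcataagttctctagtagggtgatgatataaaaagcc
CCL20: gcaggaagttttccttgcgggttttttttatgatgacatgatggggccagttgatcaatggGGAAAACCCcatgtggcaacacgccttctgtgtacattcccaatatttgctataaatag
IL6: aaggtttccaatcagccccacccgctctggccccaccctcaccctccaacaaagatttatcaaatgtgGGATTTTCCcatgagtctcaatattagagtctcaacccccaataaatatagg

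All 7 windows held GGNNTTTCC, which occurred in 6.26% of 35116 promoter windows of the same length. CXCL1, CXCL2 and CXCL3 each had a pair of matches, GGAATTTCC and GGGCTTTCC, and the downstream one began 53 bases before the start in all 3. CXCL5 and CXCL8 had a single GGAATTTCC that began 90 and 91 bases before the start. In IL6 the match read GGATTTTCC, and in CCL20 the match lay on the opposite strand. The windows of CXCL1 and CXCL3 were identical at 68.7% of positions, and CXCL2 matched them at 51.7% and 48.3% without gaps. The other motifs searched on both strands were TGANTCA (AP-1), found in 1 of the 7 windows against 7.71% of all windows, TTGCNNAA (C/EBP) in 2 against 10.5%, and CCGGAA (ETS) in 1 against 17.2%. TATAAA, read on the gene strand only, was in 2 against 7.33%. None of these matches overlapped a GGNNTTTCC match. A match describes the letters of the window and was not tested as a binding site.

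**Figure D1:**
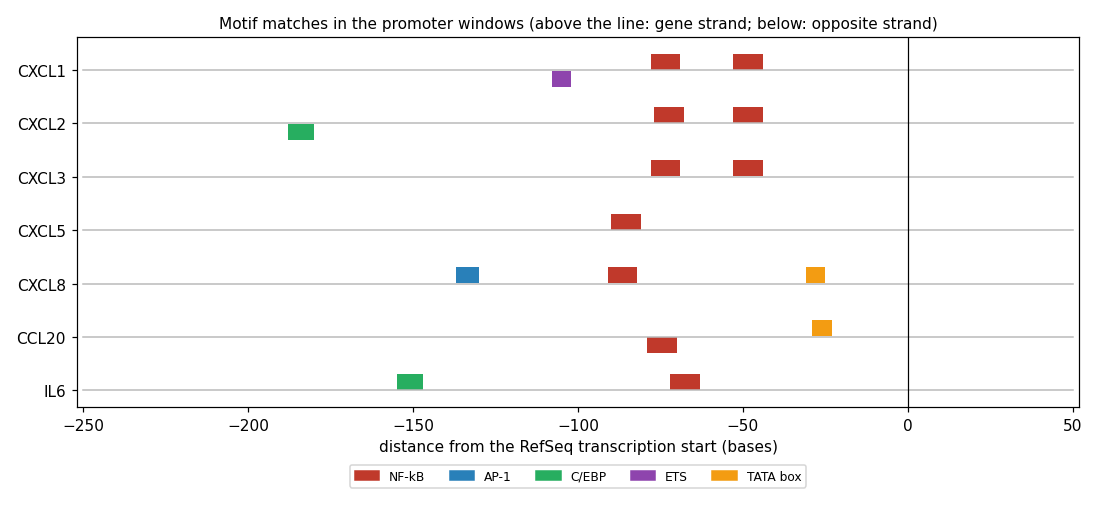
Positions of motif matches in the promoter windows of 7 genes, with the distance from the RefSeq transcription start in bases on the horizontal axis; bars above a line are on the gene strand and bars below it on the opposite strand. Each gene has a red NF-kB-type match between 91 and 45 bases before the start, and CXCL1, CXCL2 and CXCL3 have a pair.

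The 5 CXC genes lie in one cluster on chromosome 4 (GRCh38, GENCODE 29). CXCL8 (ENSG00000169429) spans 73740506 to 73743716 and CXCL1 (ENSG00000163739) 73869393 to 73871242, both on the plus strand. On the minus strand CXCL5 (ENSG00000163735) spans 73995642 to 73998779, CXCL3 (ENSG00000163734) 74036589 to 74038807 and CXCL2 (ENSG00000081041) 74097035 to 74099293. Their neighbours in the cluster were far lower: CXCL6 had 1 count over all libraries, PF4V1 had none, PPBP reached at most 0.205 CPM and PF4 was between 0.254 and 1.46 CPM. CCL2 (ENSG00000108691) is on chromosome 17 from 34255218 to 34257203 and CSF3 (ENSG00000108342) on the same chromosome from 40015361 to 40017813. CCL20 (ENSG00000115009) is on chromosome 2 from 227805739 to 227817564, IL6 (ENSG00000136244) on chromosome 7 from 22725884 to 22732002, all 4 on the plus strand, and LIF (ENSG00000128342) on chromosome 22 from 30240447 to 30246851 on the minus strand.

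Compared per kilobase of exon, CXCL1 and CXCL8 were the most abundant of the 10 RNAs in the empty vector, parental, guide 1 and guide 2 groups. In empty-vector cells CXCL1 stood at 90.1 CPM per kilobase, followed by CXCL8 at 47.6, CSF3 at 20.9, CCL20 at 13.8 and CXCL5 at 13.6. CXCL2 (4.30), CXCL3 (3.49) and LIF (3.13 CPM per kilobase) were lower, IL6 was at 0.246 and CCL2 at 0.0615. The libraries of CCL20 and CXCL5 overlapped, as did those of CXCL3 and LIF. With guides 1 and 2, CSF3 (20.7 CPM per kilobase) came after CXCL1 (38.3), and its libraries overlapped those of CXCL8 (19.0). CXCL1, CXCL2 and CXCL3 share transcript sequence, since 60 stretches of 50 bases occur in both CXCL1 and CXCL2 and 139 in both CXCL2 and CXCL3 (8.99% of those of CXCL2), so part of the reads of CXCL2 and CXCL3 may have been divided between them.

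Of the 10 genes, 9 passed the filter on low counts and were tested among 17457 genes. A gene is called changed at a Benjamini-Hochberg adjusted p under 0.05 by edgeR's quasi-likelihood test over all tested genes. CCL2, the monocyte chemokine, was not tested: it had 38 counts in all, none in the 6 libraries of guides 1 and 2 used singly, 0.065 CPM in 1 library with both guides, 0.0738 to 0.205 CPM in empty-vector cells and 0, 0.141 and 0.130 CPM in parental cells. Its empty-vector libraries held 5, 4 and 11 counts, so they lay above all single-guide libraries, but the filter left this difference without a test.

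**Figure D2:**
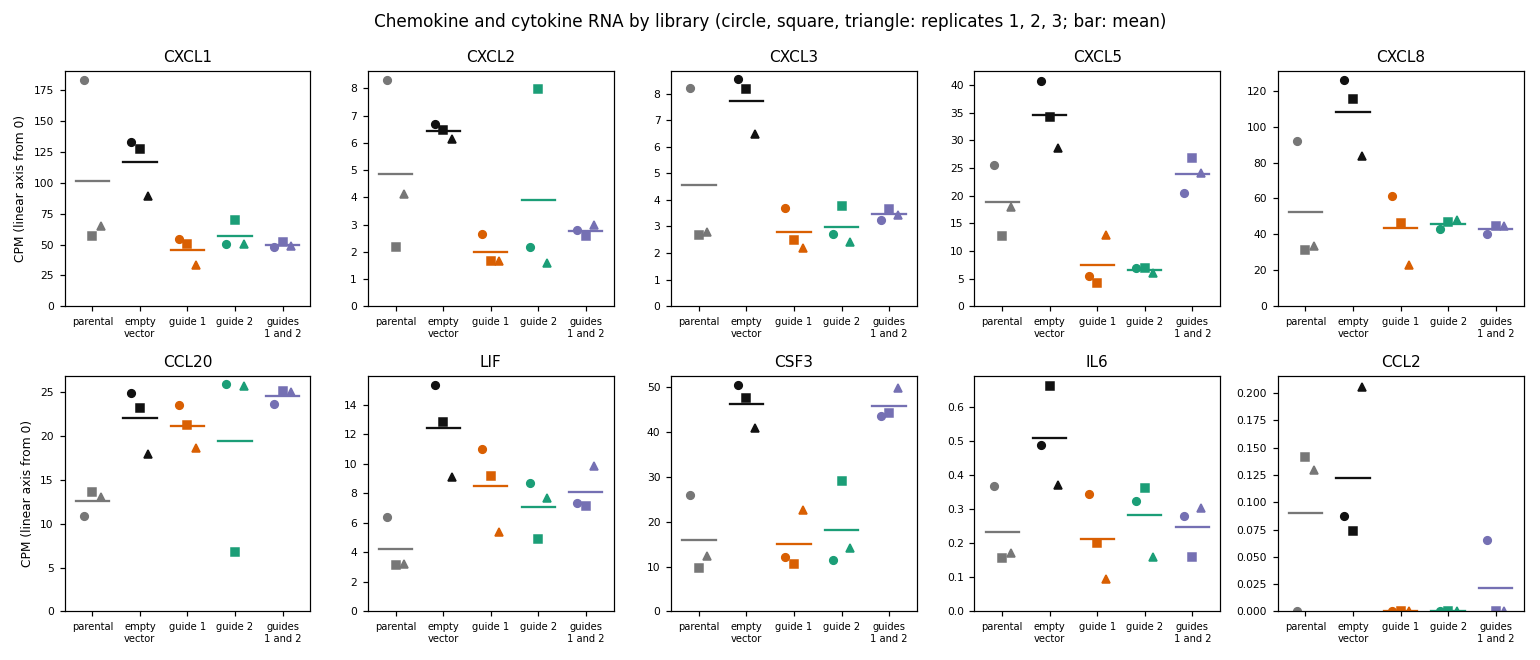
CPM of each gene on a linear axis from 0, by genotype; circles, squares and triangles are replicates 1, 2 and 3 and bars are means of 3 libraries. CXCL1, CXCL3 and CXCL8 are highest in the empty-vector libraries and parental replicate 1. CXCL5 and CSF3 are low in the single-guide lines but not with both guides, and CSF3 is similarly low in the unedited parental libraries. CCL20 is lowest in guide 2 replicate 2 and the parental libraries.

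The first comparison asked how the genes in each edited line stood against the empty vector. CXCL1, CXCL3, CXCL5 and CSF3 fell in guide 1 cells and CXCL5 fell in guide 2 cells, while no member was called in cells with guides 1 and 2. Of all tested genes, 4.57% were called lower in guide 1 cells (4 of 9 members), 2.73% in guide 2 cells (1 of 9) and 0.693% with both guides (0 of 9). No member was called higher in these comparisons, where 1.31%, 1.2% and 0.269% of all tested genes were. With both guides, edgeR gave 5 members an unadjusted p under 0.05, DESeq2 called 3, and edgeR fitted on the compared groups alone called 6. In guide 2 DESeq2 called 5 where edgeR called 1. The 3 comparisons share the empty-vector libraries. Same-numbered libraries of guide 1 and the empty vector were taken as paired, and these tests left the pairing out. With a replicate block CSF3 did not pass in guide 1 (edgeR adjusted p 0.0729). CXCL1, CXCL3 and CXCL5 did (edgeR adjusted p 0.0495, 0.0417 and 0.0153).

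Among the neutrophil chemokines, CXCL1 (GRO-alpha) had 133, 128 and 89.5 CPM with the empty vector, 54.2, 50.5 and 33.2 CPM in guide 1, 50.7, 69.7 and 50.8 CPM in guide 2, and 48.3, 51.7 and 49.0 CPM with both guides. Every edited library was below every empty-vector library. The log2 fold change was -1.35 in guide 1 (SE 0.366, edgeR adjusted p 0.0476), to 39.4% of the empty-vector mean. In guide 2 it was -1.05 (SE 0.363, edgeR adjusted p 0.134) and with both guides -1.25 (SE 0.365, edgeR adjusted p 0.127), which did not pass. Parental libraries covered a wide range, with 183, 56.7 and 64.8 CPM. The guide 1 call of CXCL1 held in 5 of the 15 fits that each left out 1 library, with the highest adjusted p, 0.135, without guide 1 replicate 2.

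CXCL8 (interleukin-8), the classical neutrophil attractant, had 126, 115 and 83.5 CPM with the empty vector and 61.1, 46.4 and 23.0 CPM with guide 1. Guide 2 libraries had 43.2, 46.8 and 48.0 CPM, and those with both guides 40.2, 44.7 and 44.7 CPM. The edited and empty-vector libraries again did not overlap, but parental replicates 2 and 3, at 31.2 and 33.5 CPM, were as low as the edited libraries, and parental replicate 1 reached 91.9 CPM. No line passed the threshold: the log2 differences were -1.32, -1.24 and -1.34 (SE 0.390, 0.390 and 0.391), with edgeR adjusted p of 0.0660, 0.0985 and 0.126 for guide 1, guide 2 and both guides. Guide 2 replicate 2, the library with high CDH1, lay between the other guide 2 libraries in CXCL8. Without parental replicate 1, which enters the shared estimate of the spread, the adjusted p of CXCL8 became 0.0175, 0.0255 and 0.0393.

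CXCL3 (GRO-gamma) was at 8.54, 8.19 and 6.49 CPM with the empty vector and at 3.70, 2.48 and 2.20 CPM with guide 1. It had 2.71, 3.79 and 2.40 CPM with guide 2 and 3.25, 3.65 and 3.45 CPM with both guides, so all 9 edited libraries were lower than the empty-vector libraries. It fell in guide 1 (log2 fold change -1.48, SE 0.377, edgeR adjusted p 0.0383), and the values in guide 2 (-1.40, adjusted p 0.0580) and both guides (-1.18, adjusted p 0.158) did not pass. The guide 1 call of CXCL3 held in 6 of 15 such fits (highest adjusted p 0.150, without guide 1 replicate 2). CXCL2 (GRO-beta) had 6.69, 6.49 and 6.16 CPM with the empty vector, 2.64, 1.67 and 1.68 CPM with guide 1, 2.17, 7.99 and 1.58 CPM with guide 2, and 2.80, 2.57 and 2.97 CPM with both guides. Guide 2 replicate 2 was the only edited library above the lowest empty-vector library. Its log2 differences were -1.70, -0.74 and -1.24, none of them called (edgeR adjusted p 0.0892, 0.496 and 0.328). Without guide 2 replicate 2 the guide 2 value became -1.82 (edgeR adjusted p 0.0117).

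CXCL5, an ELR chemokine of epithelial cells, showed the lowest level relative to the empty vector among the tested members in the single-guide lines. The empty-vector libraries had 40.8, 34.3 and 28.6 CPM. Guide 1 libraries had 5.44, 4.15 and 12.8 CPM and guide 2 libraries 6.99, 6.92 and 5.94 CPM, all well below, whereas those with both guides were intermediate at 20.6, 26.9 and 24.2 CPM. The log2 fold change of CXCL5 was -2.22 in guide 1 (SE 0.357, edgeR adjusted p 0.00578), to 21.6% of the empty-vector mean. In guide 2 the log2 fold change was -2.40 (SE 0.360, edgeR adjusted p 0.00430), to 19.2%. The calls held in all 15 fits that each left out 1 library, where the highest adjusted p was 0.0341 in guide 1 and 0.0260 in guide 2. With both guides the difference was -0.55 (SE 0.341, edgeR adjusted p 0.527), although the libraries did not overlap.

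CSF3, which drives granulocyte production, had a similar order. The empty-vector libraries had 50.4, 47.6 and 40.9 CPM and those with both guides 43.6, 44.1 and 49.8 CPM, which overlapped. Guide 1 libraries had 12.1, 10.6 and 22.6 CPM and guide 2 libraries 11.4, 29.04 and 14.2 CPM, below both of the former groups. Unedited parental cells were similarly low, at 25.9, 9.59 and 12.4 CPM. CSF3 fell in guide 1 (log2 fold change -1.63, SE 0.399, edgeR adjusted p 0.0331). In the fit with a replicate block, its adjusted p was 0.0729, which did not pass. The call also failed without any one of the empty-vector libraries or guide 1 replicate 1 or 2 (highest adjusted p 0.147). In guide 2 the difference was -1.36 (SE 0.396, edgeR adjusted p 0.0766), and -1.88 with adjusted p 0.00514 without guide 2 replicate 2. With both guides it was -0.03 (SE 0.388, edgeR adjusted p 0.992).

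LIF, a gp130 cytokine, had 15.3, 12.8 and 9.10 CPM with the empty vector and 11.01, 9.19 and 5.38 CPM with guide 1, 8.69, 4.89 and 7.66 CPM with guide 2 and 7.33, 7.13 and 9.89 CPM with both guides. Guide 2 libraries were all lower than the empty-vector libraries, and the other lines overlapped them. The log2 differences of -0.55, -0.82 and -0.63 (SE 0.335, 0.337 and 0.336) did not pass (edgeR adjusted p 0.374, 0.207 and 0.444). IL6 was near the detection level, at 0.373 to 0.664 CPM with the empty vector and 0.0949 to 0.363 CPM in the 9 edited libraries, that is between 6 and 36 counts in any library. The IL6 differences of -1.27, -0.87 and -1.05 (SE 0.481, 0.472 and 0.481) were not called (edgeR adjusted p 0.144, 0.348 and 0.351). Edited libraries were all below the empty-vector libraries in CPM. However, guide 2 replicate 2 and empty vector replicate 3 each had 20 counts of IL6 (0.363 and 0.373 CPM).

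CCL20, the CCR6 ligand, did not follow the other chemokines. The empty-vector libraries had 25.0, 23.2 and 17.9 CPM, guide 1 23.5, 21.3 and 18.7 CPM, guide 2 25.9, 6.72 and 25.7 CPM and both guides 23.6, 25.1 and 25.1 CPM. The groups overlapped in all 3 comparisons, and guide 2 replicate 2 was the lowest of the 15 libraries. The log2 differences were -0.07 in guide 1 (SE 0.349), -0.19 in guide 2 (SE 0.350) and 0.14 with both guides (SE 0.349), with edgeR adjusted p of 0.939, 0.829 and 0.927. Without guide 2 replicate 2 the guide 2 difference was 0.20 (adjusted p 0.392).

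**Figure D3:**
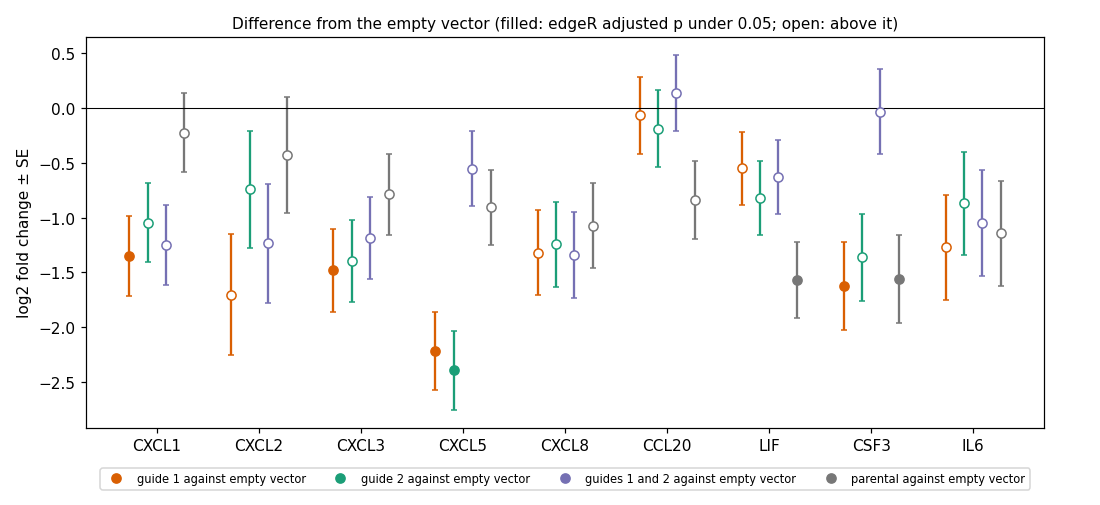
log2 fold change against the empty vector with its SE for the 9 tested genes in the 3 edited lines and the parental cells, by edgeR; filled points passed an adjusted p under 0.05 and open points did not. Points lie below 0 for all genes but CCL20 with both guides, and CXCL5 and CSF3 with both guides sit nearer 0 than in the single-guide lines.

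Over the 9 tested members the median log2 fold change was -1.35 in guide 1, -1.05 in guide 2 and -1.05 with both guides, beside 0.02, 0.03 and -0.00 over all tested genes. The edited libraries were all below the empty-vector libraries for 7 members in guide 1, 7 in guide 2 and 6 with both guides, where 18.1%, 10.9% and 17.2% of all tested genes showed this. The 7 in guide 2 include IL6, for which guide 2 replicate 2 and empty vector replicate 3 each had 20 counts. How many members were called depended on the libraries in the fit. In guide 1 it was 1 without any one of the empty-vector libraries or guide 1 replicate 1 or 2, 2 without guide 1 replicate 3 or any one library with both guides, and 6 without guide 2 replicate 2. In guide 2 it rose to 5 without parental replicate 1, 4 without guide 2 replicate 2 and 2 without parental replicate 2, and with both guides to 3 without parental replicate 1 and 1 without guide 2 replicate 2.

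The unedited groups were then compared with each other, to see how far these genes differ without editing. Parental cells had lower LIF and CSF3 than empty-vector cells, 2 of 9 members, where 2.84% of all tested genes were called lower and 1.53% higher. LIF was at 6.42, 3.13 and 3.23 CPM in the parental libraries, all below the 9.10 CPM of the lowest empty-vector library. Its log2 fold change was -1.57 (SE 0.345, edgeR adjusted p 0.0248). CSF3 was at 25.9, 9.59 and 12.4 CPM, also without overlap, and changed by -1.56 (SE 0.399, edgeR adjusted p 0.0447). CXCL5 had 25.6, 12.8 and 18.0 CPM in parental cells (log2 difference -0.91, edgeR adjusted p 0.158) and CCL20 10.9, 13.7 and 13.1 CPM (-0.84, SE 0.353, edgeR adjusted p 0.207). The parental libraries of both genes were below the empty-vector libraries, but the differences did not pass.

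Parental replicate 1 was above the empty-vector libraries in CXCL1 and CXCL2 and inside their range in CXCL3 and CXCL8, while replicates 2 and 3 were lower than all of them in these 4 genes. CXCL2 read 8.31, 2.19 and 4.11 CPM and CXCL3 8.23, 2.66 and 2.79 CPM. The log2 differences of these 4 genes were -0.22, -0.43, -0.79 and -1.08, with edgeR adjusted p from 0.139 to 0.789. Without parental replicate 1, CXCL1 (-0.97, edgeR adjusted p 0.0468), CXCL3 (-1.53, adjusted p 0.0165) and CXCL8 (-1.76, adjusted p 0.0192) passed and 5 members were called. The number was 0 without any one of the empty-vector libraries or parental replicate 2 or 3, 1 without guide 1 replicate 1 or 2, guide 2 replicate 3 or any one library with both guides, and 3 without guide 1 replicate 3 or guide 2 replicate 2. Parental libraries lay below all empty-vector libraries for 5 members, against 14.1% of all tested genes. The median over the members was -0.91, beside 0.01 over all tested genes.

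Against the parental cells, edgeR called none of the 9 members in any edited line, where 0.149%, 0.0516% and 0.195% of all tested genes were called in guide 1, guide 2 and both guides. The unadjusted p was under 0.05 for 5, 3 and 4 members, and DESeq2 called 2, 1 and 1. CXCL5 was lower than in parental cells by 1.32 in guide 1 (edgeR adjusted p 0.141) and by 1.49 in guide 2 (edgeR adjusted p 0.243) on the log2 scale, where only the guide 2 libraries were all below the parental ones. CCL20 was higher in all guide 1 and all double-guide libraries than in any parental library, with log2 differences of 0.77 and 0.98 (edgeR adjusted p 0.248 and 0.350). Over the members, libraries lay wholly below the parental ones for 1, 1 and 1 in guide 1, guide 2 and both guides, against 12.8%, 5.56% and 11.5% of all tested genes, and wholly above for 1 in guide 1 and 3 with both guides, against 11.2% and 11.6%. With both guides CSF3 (1.53, edgeR adjusted p 0.150) and LIF (0.94, edgeR adjusted p 0.354) were also above all parental libraries. CXCL1 was below the parental libraries in guide 1 (-1.13, edgeR adjusted p 0.183) and with both guides (-1.03, edgeR adjusted p 0.337). Without parental replicate 1, the highest parental library, these CXCL1 differences were -0.38 and -0.28 (edgeR adjusted p 0.501 and 0.8455). Without guide 2 replicate 2 the called members numbered 5, 2 and 2, among them CCL20 in guide 1 (0.78, edgeR adjusted p 0.00330) and with both guides (0.98, adjusted p 0.00152), and CXCL5 in guide 1 (adjusted p 0.0260) and guide 2 (adjusted p 0.0397). Without guide 1 replicate 3 they numbered 2, 1 and 0.

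With the 3 edited lines averaged against the mean of the unedited groups, CXCL1 and CXCL5 were called lower, 2 of 9 members, where 1.19% of all tested genes were. The p-values here measure the spread of libraries within genotypes, not the spread between lines. CXCL1 ranged from 33.2 to 69.7 CPM over the 9 edited libraries and from 56.7 to 183 CPM over the 6 unedited libraries, with medians of 50.7 and 109 CPM. The ranges overlapped, since parental replicates 2 and 3 were below the highest edited library. Its log2 fold change was -1.10 (SE 0.229, edgeR adjusted p 0.0339), and -0.73 without parental replicate 1 (edgeR adjusted p 0.0220). CXCL5 ranged from 4.15 to 26.9 CPM in edited and 12.8 to 40.8 CPM in unedited libraries, and changed by -1.27 (SE 0.218, edgeR adjusted p 0.0155). Mean CXCL5 with both guides, 23.9 CPM, was above the parental mean of 18.8 CPM and below the empty-vector mean of 34.6 CPM. CXCL3 (-0.96, edgeR adjusted p 0.0643), CXCL2 (-1.01, adjusted p 0.164), CXCL8 (-0.76, adjusted p 0.147) and IL6 (-0.49, adjusted p 0.486) did not pass, and LIF (0.12), CSF3 (-0.23) and CCL20 (0.38) were nearer 0. Groups overlapped for all 9 members, where 0.183% of all tested genes were lower without overlap. The number called was 6 without guide 2 replicate 2, 3 without parental replicate 2, 2 without parental replicate 1 and 1 without any one of the other 12 libraries. CXCL5 missed the threshold only without parental replicate 3 (adjusted p 0.0508), and CXCL1 passed in 4 of the 15 fits.

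The edited lines differed among themselves most in CXCL5 and CSF3, but no difference between lines passed the test. In cells with both guides CXCL5 was higher than in guide 1 by 1.67 (SE 0.352, edgeR adjusted p 0.0931) and than in guide 2 by 1.84 (SE 0.354, edgeR adjusted p 0.0787) on the log2 scale. CSF3 was higher by 1.59 (SE 0.399, edgeR adjusted p 0.156) and 1.33 (SE 0.396, edgeR adjusted p 0.441). For both genes every library with both guides was above every single-guide library. Such separation upwards was seen for 3 members against guide 1, the other being CCL20, and for 2 against guide 2, where 15.3% and 6.15% of all tested genes showed it. EdgeR called 0 of 9 members in guide 1 against guide 2, in both guides against guide 1 and in both guides against guide 2, where 0.0401%, 0.275% and 0.149% of all tested genes were called. The unadjusted p was under 0.05 for 0, 2 and 2 members, and DESeq2 called 0, 2 and 1. Without guide 2 replicate 2 the calls were 0, 2 and 2, being CXCL5 (edgeR adjusted p 0.0166 and 0.0290) and CSF3 (edgeR adjusted p 0.0152 and 0.0234) in the comparisons of both guides with guide 1 and with guide 2. Without guide 1 replicate 3 they were 0, 2 and 1.

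**Figure D4:**
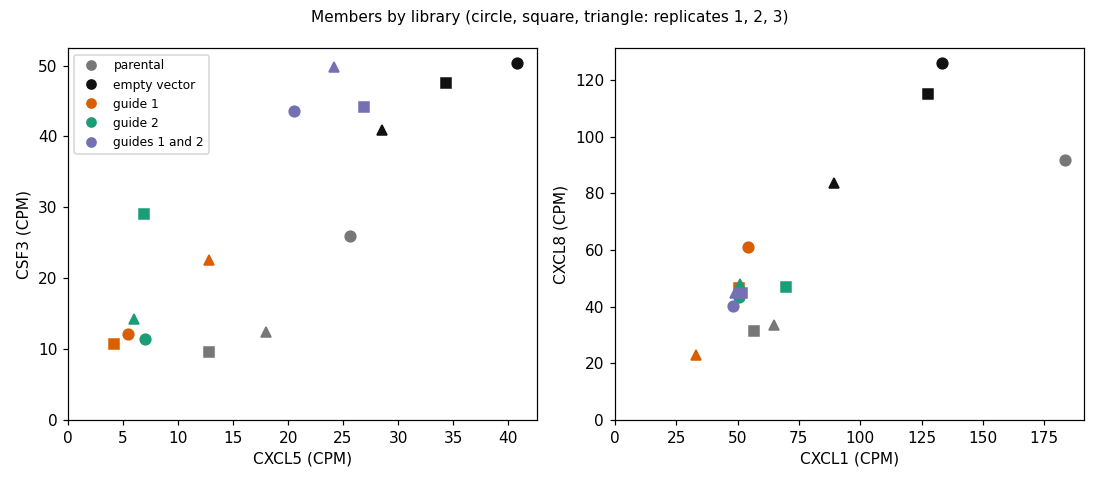
Each point is 1 library, with CPM on both axes (CXCL5 and CSF3 on the left, CXCL1 and CXCL8 on the right); colours are genotypes and circles, squares and triangles are replicates 1, 2 and 3. On the left the libraries with both guides lie near the empty-vector libraries in CSF3 at over 40 CPM, and on the right all edited libraries and parental replicates 2 and 3 lie below 70 CPM on both axes.

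Replicate spread differed between the genotypes. With both guides the highest over the lowest library was between 1.06 (CCL20) and 1.89 (IL6) for the 9 tested members. The empty-vector libraries were closer together for CXCL2 (1.09 against 1.16) and IL6 (1.78), and guide 2 libraries for CXCL5 (1.18 against 1.31). In parental cells the ratio was 3.23 for CXCL1, 2.94 for CXCL8 and 2.702 for CSF3. In guide 1 cells replicate 3 was the lowest for CXCL1, CXCL8, LIF and IL6 but the highest for CXCL5 and CSF3, so these genes did not share an order among replicates. The sum of the 10 members was 283 to 406 CPM with the empty vector, 132 to 361 CPM in parental cells, 120 to 174 CPM in guide 1, 152 to 176 CPM in guide 2 and 190 to 209 CPM with both guides.

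Receptors of the neutrophil chemokines, CCL2, CCL20 and CSF3 were at or near 0. CXCR2 and CCR6 had no count in any library, CCR2 and CSF3R at most 0.0175 and 0.065 CPM, and CXCR1 at most 0.466 CPM, in an empty-vector library. ACKR1, an atypical receptor that binds chemokines without G protein signalling, was at 8.59 to 49.2 CPM. IL6ST was at 192 to 324 CPM, LIFR at 6.43 to 24.9 CPM and IL6R at 18.8 to 30.7 CPM. CXCR1 had 12, 14 and 25 counts with the empty vector, none in guide 1 and 3 or fewer in 10 of the 15 libraries. Of the 11 receptor genes 7 were tested. The 1 call among them in guide 1, CXCR1, is of a gene that passed the filter on low counts only through unedited libraries, so it is not read as a result. None of the 7 was called in guide 2, both guides or parental cells against the empty vector, where 1, 1 and 0 had an unadjusted p under 0.05. JAK1, JAK2, STAT3, SOCS1, SOCS3, PIM1, CEBPB and CEBPD, which act downstream of gp130, were all tested and 0 of 8 were called by edgeR in guide 1, guide 2, both guides and parental cells, with 3, 2, 2 and 1 at an unadjusted p under 0.05.

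Among 12 genes of NF-kB subunits, feedback and targets, 5 were lower in guide 1, 3 in guide 2, 3 with both guides and 1 in parental cells against the empty vector, and none was higher. Over all tested genes 4.57%, 2.73%, 0.693% and 2.84% were lower. In the fit with a replicate block, a term shared by all 5 genotypes, NFKB2 did not pass (edgeR adjusted p 0.0824). In that fit 4 of the 12 were lower in guide 1. ICAM1, an adhesion molecule for leukocytes and a textbook NF-kB target, had 27.1, 25.9 and 30.5 CPM with the empty vector, 13.7, 12.8 and 13.0 CPM in guide 1, 6.49, 4.21 and 7.08 CPM in guide 2 and 14.6, 13.5 and 14.6 CPM with both guides. It also had 10.6, 9.31 and 6.78 CPM in parental cells, so all other libraries were below the empty-vector libraries. The log2 fold changes of ICAM1 were -1.09, -2.24, -0.99 and -1.68 (edgeR adjusted p 0.00754, 0.000207, 0.0290 and 0.00131) in guide 1, guide 2, both guides and parental cells. NFKBIZ, a nuclear IkB protein that co-activates NF-kB targets, fell in guide 1 (-0.75, edgeR adjusted p 0.0231), guide 2 (-0.89, adjusted p 0.0143) and both guides (-0.92, adjusted p 0.0272), and was at -0.32 in parental cells (adjusted p 0.327). TNFAIP3 (A20), a feedback inhibitor, fell in guide 1 (-1.76, edgeR adjusted p 0.0200) and with both guides (-1.82, adjusted p 0.0442). In edited against unedited cells 5 of the 12 were lower, where 1.19% of all tested genes were: NFKBIE, NFKBIZ, TNFAIP3, BIRC3 and ICAM1. The median of the 12 was -0.81, -0.47, -0.83 and -0.19 in the 4 comparisons with the empty vector. ICAM1 held its call in 15, 15, 9 and 15 of the 15 fits that each left out 1 library and NFKBIZ in 10, 15 and 9, while TNFAIP3 held in 11 with guide 1 and 6 with both guides. NFKBIE held in 12 with guide 1 and 4 with guide 2, and NFKB2 in 5 with guide 1. In edited against unedited cells BIRC3 held in 4 of 15, and it did not pass with the replicate block (edgeR adjusted p 0.0639). With both guides ICAM1 had its highest adjusted p, 0.146, without empty vector replicate 3. The replicate block also ended the calls of ICAM1, NFKBIZ and TNFAIP3 with both guides (edgeR adjusted p 0.0576, 0.0567 and 0.1085). In guide 2 it ended that of NFKBIE (edgeR adjusted p 0.0875). Replicate numbers did not pair these lines with the empty vector.

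IL1B, an upstream inducer of these chemokines, had larger log2 fold changes against the empty vector than any of the 9 tested members. It had 35.9, 32.6 and 75.1 CPM with the empty vector, 2.64, 1.68 and 1.03 CPM in guide 1, 1.83, 10.2 and 1.24 CPM in guide 2, 3.08, 3.16 and 3.16 CPM with both guides and 4.54, 1.13 and 4.07 CPM in parental cells. Every other library was below the empty-vector libraries, edited or not. The log2 fold changes of IL1B were -4.77, -3.47, -3.96 and -3.92 (edgeR adjusted p 0.00668, 0.0232, 0.0305 and 0.0153) in guide 1, guide 2, both guides and parental cells. The IL1B calls held in 15, 12, 9 and 12 of the 15 fits that each left out 1 library. IL1A was at 71.5 to 117 CPM with the empty vector and 185 CPM in guide 2 replicate 2, against 9.27 and 7.99 CPM in the other guide 2 libraries, and it was not called in the 4 comparisons (edgeR adjusted p 0.102 to 0.856). Of the 10 genes of interleukin-1 input, 2, 2, 1 and 1 were called lower and none higher. Among all tested genes 4.57%, 2.73%, 0.693% and 2.84% were called lower. Besides IL1B the called gene was the kinase IRAK2, which did not pass in guide 1 with the replicate block (edgeR adjusted p 0.0660).

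Other secreted factors were called in both directions. Of 4 tested chemokines outside the 10, CXCL16 fell in guide 1 (-1.67, edgeR adjusted p 0.0436), and CCL28, a mucosal chemokine, rose in guide 1 (0.79, edgeR adjusted p 0.0391), guide 2 (0.98, adjusted p 0.0194) and parental cells (0.96, adjusted p 0.0209). CCL28 was at 2.31, 2.08 and 2.91 CPM with the empty vector and at 3.29 CPM or more in all other libraries. Leaving out 1 library ended the guide 1 calls of CXCL16, CCL28 and ZFP36 in 10, 10 and 8 of 15 fits, and in the fit with a replicate block their adjusted p was 0.0879, 0.0691 and 0.0587. Of 16 tested cytokines outside the 10, 3, 3, 2 and 2 were lower in guide 1, guide 2, both guides and parental cells. In the same order, 4.57%, 2.73%, 0.693% and 2.84% of all tested genes were called lower and 1.31%, 1.2%, 0.269% and 1.53% higher. IL24 was lower in each of the 4 comparisons (log2 fold changes of -2.63, -1.31, -1.41 and -2.16, edgeR adjusted p 0.000277, 0.0124, 0.0198 and 0.00131). IL32 fell in guide 1 (-4.52, edgeR adjusted p 0.00619) and CSF1 in guide 2 (-0.77, edgeR adjusted p 0.0330). The CSF1 call held in 9 of 15 fits that each left out 1 library, and that of IL24 with both guides in 11. With the replicate block neither passed (edgeR adjusted p 0.0657 and 0.0538). Among 7 genes of AU-rich mRNA decay, ZFP36, which promotes decay of many cytokine mRNAs, rose in guide 1 (0.49, edgeR adjusted p 0.0363), and no other call was made against the empty vector.

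**Figure D5:**
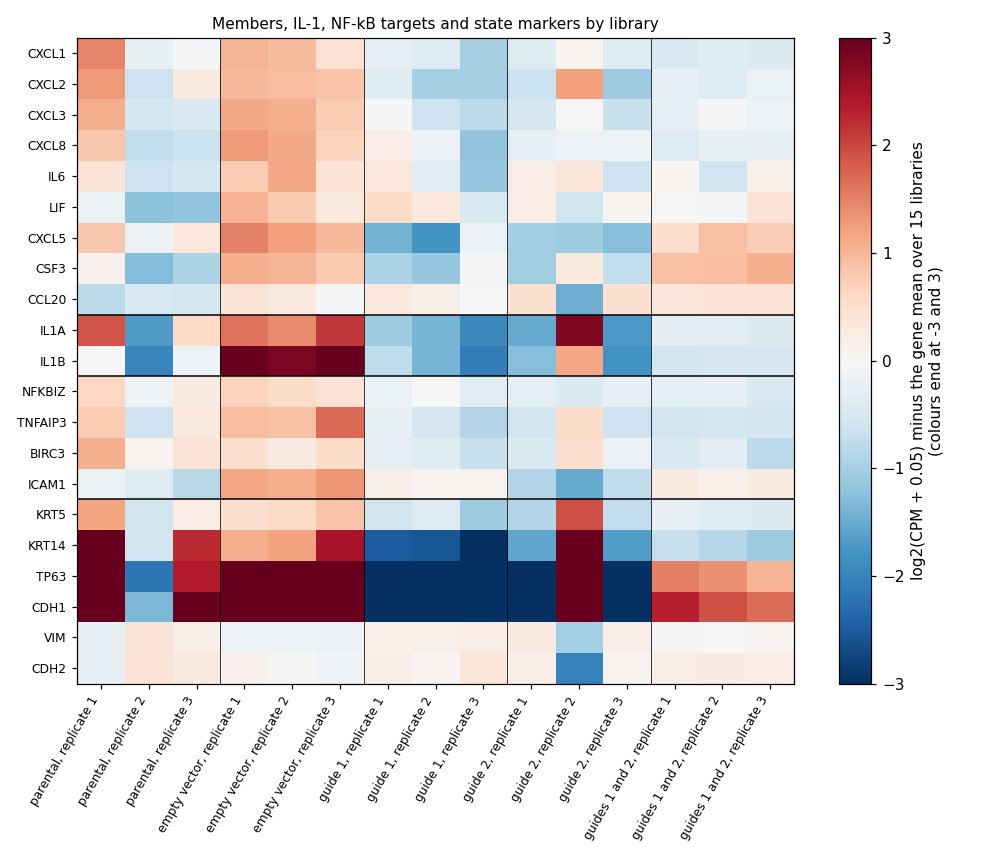
log2(CPM + 0.05) of each gene minus its mean over the 15 libraries, with libraries in columns by genotype; blocks from top to bottom are the members without CCL2, IL1A and IL1B, NF-kB targets and feedback genes, and markers of epithelial and mesenchymal state. Empty-vector libraries are red in most member rows and in IL1B, and guide 2 replicate 2 is red in KRT14, TP63 and CDH1 beside 2 blue replicates.

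Epithelial markers varied between and within genotypes. Their summed level over 10 genes was 4954 to 7047 CPM with the empty vector, 2257 to 5626 CPM in parental cells, 1936 to 3004 CPM in guide 1, 2333 to 9552 CPM in guide 2 and 2911 to 3128 CPM with both guides, and 4, 1, 0 and 1 of the 10 were called lower in guide 1, guide 2, both guides and parental cells against the empty vector. The share of all tested genes called lower was 4.57%, 2.73%, 0.693% and 2.84%, and the share called higher 1.31%, 1.2%, 0.269% and 1.53%. The called markers were KRT17, KRT18, CDH1 and LAMB3 in guide 1, and LAMB3 in guide 2 and parental cells. CDH1 was at 44.1 to 127 CPM with the empty vector, at most 0.158 CPM in guide 1 and 14.8 to 23.4 CPM with both guides, and TP63 was at 41.4 to 68.0, at most 0.203 and 7.83 to 10.99 CPM. In guide 2 replicate 2, where CDH1 and TP63 (75.8 CPM) were as high as with the empty vector, CXCL1, CXCL3, CXCL5 and CXCL8 remained below the empty-vector libraries and CXCL2 and IL1A did not. The 8 fibroblast markers summed to 103 to 146 CPM with the empty vector, 108 to 139 CPM in parental cells, 437 to 1105 CPM in guide 1, 62.3 to 407 CPM in guide 2 and 232 to 257 CPM with both guides, most of it DCN. COL1A1 went the other way, at 2.88 to 6.41 CPM in the edited and 7.77 to 20.0 CPM in the unedited libraries, and COL3A1 and THY1 reached at most 0.0553 and 0.0746 CPM. Of 5 fibroblast markers tested, 2 were higher (DCN and LUM) and 1 lower (COL1A1) in guide 1 against the empty vector, COL1A1 was lower in guide 2 and with both guides, and COL1A2 was higher in parental cells. In edited against unedited cells DCN was higher and COL1A1 and COL1A2 were lower, where 0.321% and 1.19% of all tested genes were called higher and lower. COL1A2 was near the detection level, at 0.0434 to 0.218 CPM in the edited and 0.105 to 0.548 CPM in the unedited libraries. The calls of COL1A2 are therefore not read as a result. Of 2 leukocyte markers tested CSF1R was lower in guide 1 and guide 2. Of 3 endothelial markers tested KDR was higher in guide 1 and TEK lower in guide 2 and parental cells, and CDH5 reached at most 0.0191 CPM. The part of these marker lists in the chemokine values was not tested.

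The genes whose log2 CPM over the 15 libraries was most like the mean of the 9 tested members, out of 11624 others, were TEAD2 (Pearson r 0.968), S100A3 (0.939), METRNL (0.932), MBD2 (0.921) and HSPA5 (0.900). Among members, CXCL3 (0.95) and CXCL8 (0.927) were nearest to that mean and CCL20 (0.189) farthest. For CXCL8 alone they were MAFF (0.926), ENSG00000112096 (0.907, SOD2 in GENCODE 29), EIF2S3 (0.888), TEAD2 (0.878) and PTPRE (0.873). These correlations describe 15 libraries of 5 genotypes that share the genotype differences. TEAD2 was at 24.7 ± 1.95 CPM with the empty vector and 18.9 ± 1.12 CPM in guide 1, and ENSG00000112096 at 195 ± 7.65 CPM with the empty vector and between 98.1 and 117 CPM on average in the other 4 groups (SD, n = 3).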

How the data were processed

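The authors deposited whole-number read counts per gene for 15 libraries without pooling replicates, and CPM that equal the counts scaled to the library total to within 4.91e-11. Per the labels, RNA came from RNeasy columns and libraries from a KAPA mRNA HyperPrep kit. The submitters' processing notes name Trim Galore 0.6.0, STAR 2.7.8a and GRCh38. The counting program, annotation and use of strand are not given in the sources used here; the genes annotated over IL6 and LIF on the other strand reached at most 0.112 CPM. Detection levels cover counting error only, since the sources name no molecular identifiers, whereas each SE also includes the spread between libraries.

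Counts were tested with edgeR 4.0.16 in R 4.3.3 (filterByExpr by genotype, TMM scaling with factors from 0.9725 to 1.0167, glmQLFit and glmQLFTest, group means over 15 libraries, 10 residual degrees of freedom), two-sided, in 11 comparisons. Each SE is the size of the log2 fold change over the root of F. The procedure was tested on simulated data. Alternatives were RLE scaling, no filter, a replicate block, DESeq2 1.42.0, only the compared groups, and leaving out each library. Python 3.11.15, numpy 2.4.6, pandas 2.3.3 and matplotlib 3.10.9 served for levels, motifs and plots.

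Replicate numbers come from the labels. Over genes, deviations of same-numbered libraries correlated in all 3 pairs of guide 1 and the empty vector (0.136 to 0.28), which were taken as paired, and not in every pair of the other groups.

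All 10 members were named, and a gene of the other lists could be named where called in any comparison; IL1A and the markers of cell state are named for their levels, chosen after their values were seen. The similar genes are the 5 with the highest correlation at an average log2 CPM of at least 1; none were sought for CCL2, which was not tested. The members and lists were chosen with earlier results of these data known.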

Additional observations from a re-analysis of the deposited data

Results flagged for a closer look

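Lines edited with different guides differed in 3 genes named here, by edgeR's test of the difference itself. NF1 was higher with guide 1 than with guide 2 (log2 difference 0.69, adjusted p 0.0121) and lower with both guides than with guide 1 (-0.77, adjusted p 0.00411). ICAM1, the leukocyte adhesion gene, was higher with both guides than with guide 2 (1.25, adjusted p 0.0260). LUM, which encodes the matrix proteoglycan lumican, was lower with both guides than with guide 1 (-2.97, adjusted p 0.0415), at 0.165 and 1.29 CPM on average. Leaving out 1 library at a time kept these calls in 12, 15, 8 and 5 of 15 fits in the order given. The highest adjusted p was 0.101 without guide 1 replicate 2 for NF1 in guide 1 against guide 2, and 0.132 for ICAM1 and 0.249 for LUM without replicate 2 of the line with both guides.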

How the results depend on the processing

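With RLE scaling no count of called members moved by over 1.5 times. Without the filter on low counts 3 members were called in guide 2 against the empty vector, 4 in edited against unedited cells, 2 in both guides against guide 1 and 1 in both guides against guide 2. DESeq2 called 5 in guide 2 and 3 in both guides against the empty vector, 2, 1 and 1 in guide 1, guide 2 and both guides against parental cells, 5 in edited against unedited cells, and 2 and 1 in both guides against guide 1 and guide 2. With only the compared groups in the fit, both guides had 6 against the empty vector, 1 against parental cells and 2 against guide 1. The causes were not tested. The replicate block gave 1 member in parental against empty-vector cells, where CSF3 had an adjusted p of 0.0884, and 1 in edited against unedited cells, where CXCL1 had 0.0530; among members it also ended the call of CSF3 in guide 1 and no other. Of the other genes, in guide 1 it also ended the calls of NFKB2 (adjusted p 0.0824) and IRAK2 (0.0660). Where the numbers did not pair the libraries, it ended 8 calls of other genes in guide 2 and both guides against the empty vector, among them IL1B in guide 2 (adjusted p 0.0605) and with both guides (0.0848), and 3 in other comparisons (BIRC3, LUM and ICAM1).

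Leaving out 1 library, the called members ranged from 1 to 6, 1 to 5, 0 to 3 and 0 to 5 in guide 1, guide 2, both guides and parental cells against the empty vector. They ranged from 0 to 5, 0 to 2 and 0 to 2 in the edited lines against parental cells, 1 to 6 in edited against unedited cells, and 0 to 2 in both guides against either single guide. The sign of some differences near 0 also turned. CCL20 ranged from -0.1982 to 0.0248 in guide 1 and from -0.4667 to 0.1965 in guide 2 against the empty vector. CSF3 ranged from -0.1118 to 0.016 with both guides against the empty vector and from -0.4017 to 0.0477 in edited against unedited cells. CXCL1 ranged from -0.9675 to 0.0543 in parental against empty-vector cells. With 3 libraries per genotype and 6 to 36 counts of IL6 in a library, changes of IL6 may have been missed. The smallest detectable change was not tested. CCL2 was not tested.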
